A study of Mus musculus with 6 samples.

Results

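The 7 genes that encode the subunits of AMP-activated protein kinase (AMPK) were described across 6 RNA-seq libraries of mouse femur. They were chosen by gene symbol (Prkaa1, Prkaa2, Prkab1, Prkab2, Prkag1, Prkag2 and Prkag3), with the difference between these same groups already known, so their values in this contrast are a description and no test of them is given. All 7 were found among the 34361 genes of the deposited table, and all 7 passed the filter on low counts. The libraries came from 3 knockout-labelled femora, taken from mice in which tamoxifen was used to induce a deletion, and from 3 control femora of mice injected with corn oil. The design text counts 3 mice in each group and names Fshr, the receptor of follicle-stimulating hormone, as the deleted gene, whereas the label of the treatment names FGF21. Both genes had 0 counts in all 6 libraries, so the label could not be checked on its target, and the libraries are called knockout-labelled throughout. Tamoxifen was given only to the knockout-labelled animals, so the drug and the deletion cannot be told apart. The labels give no strain, age or Cre driver, and do not say whether these animals had been ovariectomized, a state named in the series title.

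AMPK is a heterotrimer of a catalytic alpha subunit, a beta subunit that holds the complex together and binds glycogen, and a gamma subunit that binds AMP, ADP and ATP. When ATP runs low, nucleotide binding to gamma and phosphorylation of alpha by an upstream kinase such as LKB1 switch the complex on, and it then slows lipid synthesis and promotes glucose uptake and fat oxidation. Each subunit has isoforms: Prkaa1, Prkab1 and Prkag1 encode forms found in most tissues, while Prkaa2 (alpha2), Prkab2 (beta2) and Prkag3 (gamma3) encode the forms that skeletal muscle is known for, with gamma3 found mainly in fast glycolytic fibres. Prkag2 encodes a further gamma form that is prominent in heart.

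The promoters of the 3 muscle-type genes and of Prkag1 are shown because the muscle-type genes were higher together in the knockout-labelled libraries while Prkag1 differed far less. The windows of Prkaa1, Prkab1 and Prkag2, which also differed less than the muscle-type genes, are not printed. Each is the 250 bases before the transcription start in RefSeq, build GRCm38.p6, read 5′ to 3′ on the strand of the gene. The capitals mark CANNTG, the E-box that muscle regulatory factors and many other factors bind. The windows are Prkag3 at chr1:74748956-74749205 (minus strand), Prkaa2 at chr4:105109899-105110148 (minus strand), Prkab2 at chr3:97657962-97658211 (plus strand) and Prkag1 at chr15:98831509-98831758 (minus strand).
Prkag3: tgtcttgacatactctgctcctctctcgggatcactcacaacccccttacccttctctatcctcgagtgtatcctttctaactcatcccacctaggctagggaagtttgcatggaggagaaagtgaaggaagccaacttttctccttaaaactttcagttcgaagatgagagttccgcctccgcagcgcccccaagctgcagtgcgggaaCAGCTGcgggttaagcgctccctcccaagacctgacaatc
Prkaa2: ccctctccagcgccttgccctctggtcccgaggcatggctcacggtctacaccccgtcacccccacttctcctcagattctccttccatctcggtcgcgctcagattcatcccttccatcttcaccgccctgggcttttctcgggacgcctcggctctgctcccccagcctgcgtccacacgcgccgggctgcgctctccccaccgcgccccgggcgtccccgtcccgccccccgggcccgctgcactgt
Prkab2: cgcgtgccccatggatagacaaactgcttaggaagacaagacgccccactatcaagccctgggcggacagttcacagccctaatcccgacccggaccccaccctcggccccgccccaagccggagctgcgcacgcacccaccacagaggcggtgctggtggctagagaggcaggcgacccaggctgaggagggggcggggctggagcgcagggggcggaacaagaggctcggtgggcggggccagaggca
Prkag1: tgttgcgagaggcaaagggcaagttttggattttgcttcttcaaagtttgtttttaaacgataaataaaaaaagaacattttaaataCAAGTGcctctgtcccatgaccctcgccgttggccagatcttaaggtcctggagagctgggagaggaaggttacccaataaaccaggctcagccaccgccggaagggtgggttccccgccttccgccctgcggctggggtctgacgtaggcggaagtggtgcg

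The 3 muscle-type windows do not share a motif among those searched. The Prkag3 window holds 1 E-box, 40 bases before the start, and it reads CAGCTG, a form that is itself a CANNTG. The windows of Prkaa2 and Prkab2 hold none, and that of Prkag1 holds 1, 163 bases before the start. Of the members not printed, Prkaa1 and Prkab1 hold none, and the 3 windows of Prkag2 hold 1, 3 and 2. Searched on both strands, CANNTG is present in 66.2% and CAGCTG in 13.0% of the 32851 RefSeq windows of the same length. The binding motif of MEF2, searched by its consensus and present in 2.92% of all windows, was found in no window of the 7 genes. Base composition sets Prkag3 apart within the muscle-type genes, with 52.4% G and C and 9 CpG dinucleotides, against 70.0% and 24 for Prkaa2 and 69.2% and 18 for Prkab2. The median over all windows was 52.4% and 6 CpG. Such matches describe these windows and no binding was measured.

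Estimated counts summed to 65.8 to 73.5 M per library, which corresponds to 16.4 to 18.4 M read pairs if a pair adds 4 counts, the step at which low counts pile up. The libraries differed in their tissue markers, counted as higher or lower at an adjusted p of 0.05 (edgeR quasi-likelihood test). Of all 20388 genes tested, 57.5% passed this threshold, 28.7% as higher and 28.8% as lower. The 25 skeletal muscle markers were all higher in the knockout-labelled libraries and held 11.2% to 11.3% of counts there, against 2.55% to 2.6% in controls. Of 13 osteoblast and osteocyte markers 11 were lower and 2 higher, with 1.96% to 1.98% of counts in knockout-labelled libraries and 9.27% to 9.39% in controls, so bone markers were present in both groups. Osteoclast markers (7 of 7 lower) held 0.151% to 0.155% of counts against 1.12%, and neutrophil markers (8 of 8 lower) 0.322% to 0.327% against 0.829% to 0.842%. Adipocyte markers (8 of 8 higher) held 0.123% to 0.127% against 0.0418% to 0.0433%, and erythroid markers (8 of 8 higher) 1.11% to 1.12% against 0.538% to 0.556%. Of the satellite cell markers 5 were higher and 2 lower of 8. Their summed share went the other way, at 0.0131% to 0.0137% of counts in knockout-labelled libraries against 0.0165% to 0.0171% in controls. Of 3 tested genes on a list of heart markers 2 were higher, while Nppb was at 0 in all 6 libraries. The part of tissue makeup in the values that follow was not tested, and in bulk RNA a change in the number of cells of a type and a change in RNA per cell cannot be told apart. Separate mice are named only in the design text, so the spread between libraries may be partly technical.

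Of the catalytic subunits, Prkaa2 was several-fold higher in the knockout-labelled femora and Prkaa1 was lower or level, depending on the scale. Prkaa2 (ENSMUSG00000028518, chromosome 4, 104887071 to 104967087, minus strand, GRCm39) had 17.6, 17.3 and 17.0 FPKM (fragments per kilobase of transcript, scaled to library depth, as deposited) in the knockout-labelled libraries, against 4.04, 3.72 and 3.99 FPKM in controls. The groups stood far apart, each within a narrow range. After TMM scaling, which sets the bulk of genes level between libraries, the log2 fold change was 2.57 (SE 0.0396), or 5.94-fold. Prkaa1 (ENSMUSG00000050697, chromosome 15, 5173343 to 5211380, plus strand), the form with the broader expression, had 4.86, 5.34 and 5.32 FPKM in knockout-labelled libraries and 8.07, 6.67 and 6.94 FPKM in controls. Its FPKM values did not overlap between the groups, and control replicate 1 was the highest of the 6. Its TMM-scaled log2 fold change was -0.06 (SE 0.0897), with overlapping values on that scale.

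The beta subunits differed between the groups in the same way as the alpha subunits. Prkab2 (ENSMUSG00000038205, chromosome 3, 97565509 to 97581128, plus strand) had 31.8, 33.3 and 31.9 FPKM in knockout-labelled libraries, against 9.15, 8.86 and 8.92 FPKM in controls, the highest of the 7 by gene FPKM in the knockout-labelled femora. Its TMM-scaled log2 fold change was 2.27 (SE 0.0228), or 4.84-fold, with no overlap between the groups. Prkab1 (ENSMUSG00000029513, chromosome 5, 116151645 to 116162567, minus strand), the broadly expressed scaffold, had 7.7, 8.02 and 7.8 FPKM in knockout-labelled libraries and 11.2, 10.8 and 12.1 FPKM in controls. Every knockout-labelled library was below every control, yet most of that gap went with the scale: the TMM-scaled log2 fold change was -0.10 (SE 0.052).

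The gamma family held both the highest and the lowest log2 fold change of the 7 members. Prkag3 (ENSMUSG00000006542, chromosome 1, 74778081 to 74788380, minus strand) had 21.2, 20.9 and 19.6 FPKM in knockout-labelled libraries, against 2.06, 1.59 and 1.62 FPKM in controls. Its estimated counts were 5682, 5500 and 5731 in knockout-labelled libraries and 560, 454 and 453 in controls, so the gene was well above the detection limit in both groups. The TMM-scaled log2 fold change was 3.97 (SE 0.123), or 15.7-fold. Prkag2 (ENSMUSG00000028944, chromosome 5, 25067742 to 25305640, minus strand) had 4.18, 4.24 and 4.64 FPKM in knockout-labelled libraries, against 8.73, 8.72 and 8.99 FPKM in controls. The groups did not overlap, with a TMM-scaled log2 fold change of -0.59 (SE 0.0465), or 0.664-fold. Prkag1 (ENSMUSG00000067713, chromosome 15, 98710678 to 98729402, minus strand), the common gamma form, had 28.4, 25.7 and 27.2 FPKM in knockout-labelled libraries and 28.7, 26.4 and 26.3 FPKM in controls. Its FPKM ranges overlapped almost entirely, while its TMM-scaled log2 fold change was 0.43 (SE 0.0575), or 1.34-fold.

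**Figure D1:**
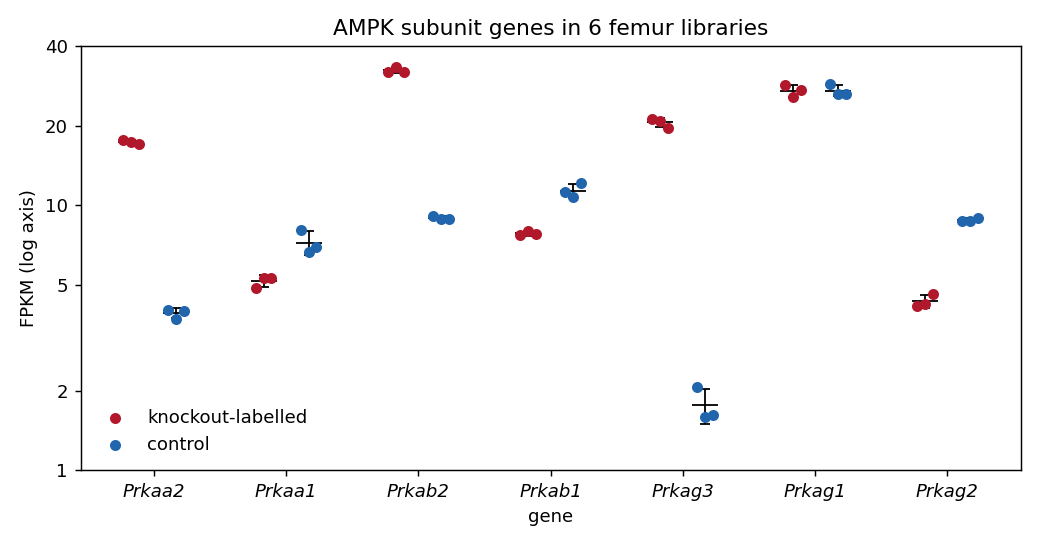
Gene FPKM of the 7 AMPK subunits in the 3 knockout-labelled and 3 control libraries on a log axis, one point per library with the mean and SD. Prkaa2, Prkab2 and Prkag3 stand far above the controls (17.3, 32.3 and 20.6 FPKM against 3.92, 8.98 and 1.75 FPKM), Prkag1 overlaps at 27.1 FPKM in knockout-labelled and 27.1 FPKM in control libraries, and Prkag2 is lower (4.35 against 8.81 FPKM).

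The size of each difference depended on the scale, and for Prkag1 so did its direction. Scaling by library totals lowered the median gene by 0.42 on the log2 scale relative to TMM, and log2(TPM + 1), from each library's FPKM rescaled to a common sum, lowered it by 0.72. Prkaa2 was at 2.15 with library totals and 1.71 with TPM, Prkab2 at 1.85 and 1.47, and Prkag3 at 3.55 and 2.99. Prkag2 was at -1.01 with library totals and -1.29 with TPM. Prkag1 was at 0.01 with library totals and -0.34 with TPM, so its direction turned. Prkaa1 (-0.48 and -0.78) and Prkab1 (-0.53 and -0.85) were lower on both of these scales. The groups did not overlap in TMM-scaled CPM (counts scaled to library depth) for 6 of the 7 members, Prkaa1 being the exception, and for 64.4% of all 20388 genes tested, and nothing is read from that count since this contrast was known when the members were chosen.

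**Figure D2:**
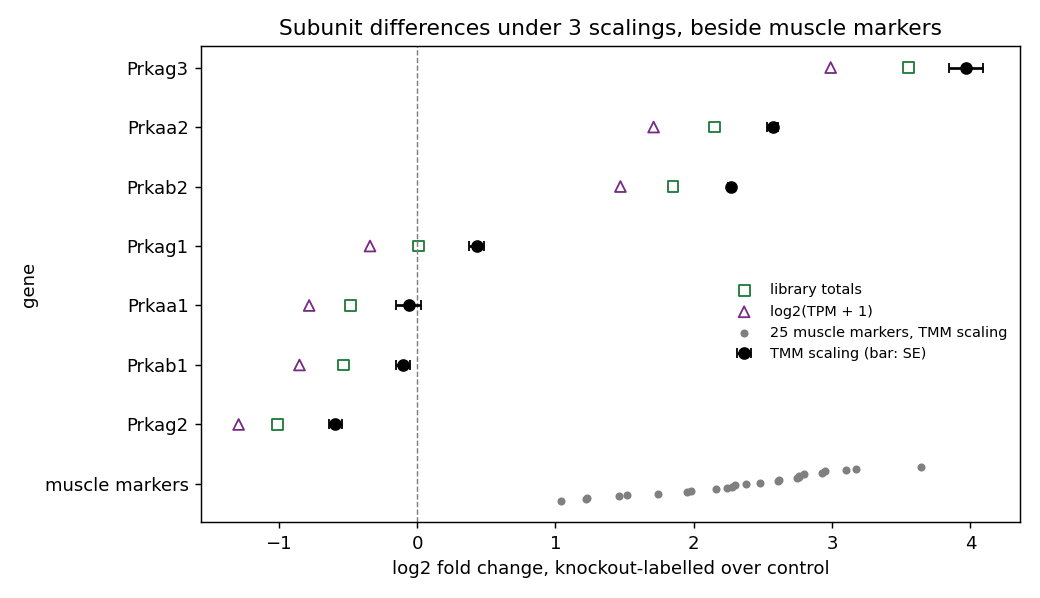
Log2 fold change of each subunit, knockout-labelled over control, under TMM scaling (bars show the SE), library totals and log2(TPM + 1), with 25 muscle markers in the lowest line. Prkaa2, Prkab2 and Prkag3 stay above 0 on all 3 scales, Prkag2 stays below 0, and Prkag1 is at 0.43, 0.01 and -0.34.

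A ratio of subunits within a library does not depend on such scaling, and in each family the muscle-type form was higher relative to the ubiquitous form in the knockout-labelled libraries. The FPKM ratio of Prkaa2 to Prkaa1 was 3.62, 3.25 and 3.2 in knockout-labelled libraries, against 0.501, 0.557 and 0.575 in controls. Prkaa2 was thus the more abundant catalytic form in the knockout-labelled libraries and Prkaa1 in controls, and the difference of the log2 fold changes was 2.63 (SE 0.0822). The ratio of Prkab2 to Prkab1 was 4.13, 4.15 and 4.09 in knockout-labelled libraries and 0.817, 0.823 and 0.74 in controls, a difference of 2.38 (SE 0.05). The ratio of Prkag3 to Prkag1 was 0.746, 0.813 and 0.721 in knockout-labelled libraries and 0.072, 0.0601 and 0.0615 in controls. Prkag1 thus stayed above Prkag3 by gene FPKM in all 6 libraries, although the difference of the log2 fold changes was the widest of the 3 families at 3.54 (SE 0.0965). The groups did not overlap in any of these 3 ratios.

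As shares of summed FPKM, Prkaa2 made up 77.0% ± 1.17 of alpha in knockout-labelled libraries and 35.2% ± 1.65 in controls (SD, n = 3 each). Prkab2 made up 80.5% ± 0.107 of beta in knockout-labelled libraries and 44.2% ± 1.47 in controls. In gamma, Prkag3 held 39.5% ± 1.5 in knockout-labelled libraries against 4.64% ± 0.506 in controls. Both of the other gamma forms held smaller shares in the knockout-labelled libraries: Prkag1 held 52.1% ± 1.31 against 71.9% ± 0.713, and Prkag2 held 8.37% ± 0.624 against 23.4% ± 1.17.

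**Figure D3:**
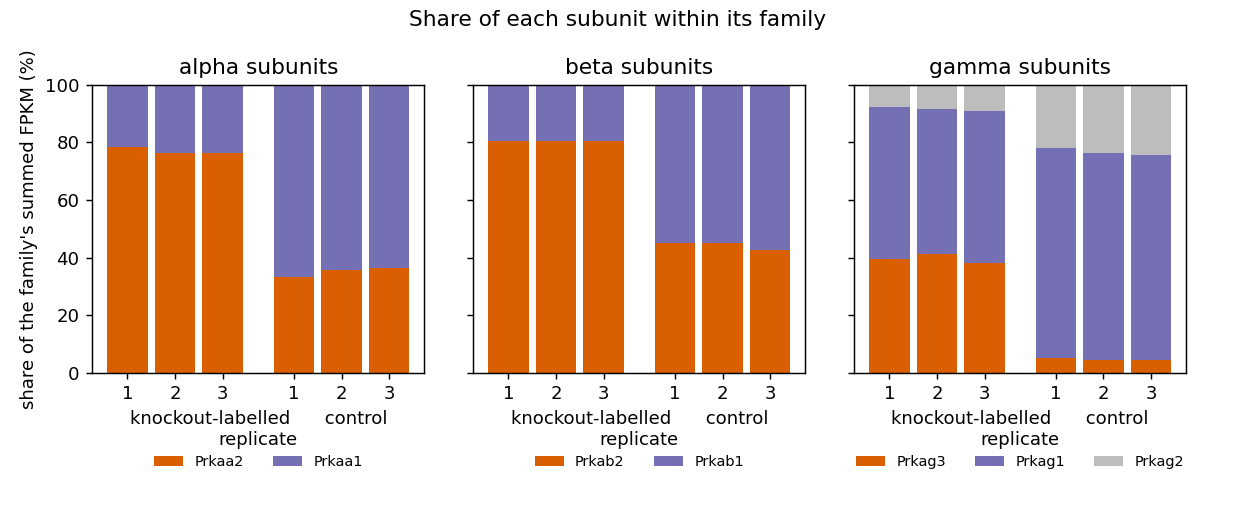
Share of summed gene FPKM held by each subunit within the alpha, beta and gamma families, per library, knockout-labelled before control. The muscle-type share is 76.2% to 78.3% of alpha, 80.4% to 80.6% of beta and 38.1% to 41.1% of gamma in knockout-labelled libraries, against 33.4% to 36.5%, 42.5% to 45.1% and 4.32% to 5.23% in controls.

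The families also differed in their sums. Summed alpha FPKM was 22.5 ± 0.165 in knockout-labelled libraries and 11.1 ± 0.88 in controls, a ratio of 2.02. Summed beta FPKM was 40.2 ± 0.972 and 20.3 ± 0.678 in knockout-labelled and control libraries, a ratio of 1.98. Summed gamma FPKM differed less, at 52.1 ± 1.57 in knockout-labelled libraries and 37.7 ± 1.54 in controls, a ratio of 1.38. The 3 muscle-type genes together had 70.3 ± 1.54 FPKM in knockout-labelled libraries and 14.6 ± 0.552 FPKM in controls. The 3 ubiquitous genes (Prkaa1, Prkab1 and Prkag1) together had 40.1 ± 0.963 FPKM in knockout-labelled libraries and 45.7 ± 2.07 FPKM in controls. Prkag2, which is in neither of these 2 sums, had 4.35 ± 0.247 FPKM in knockout-labelled libraries and 8.81 ± 0.154 FPKM in controls (SD, n = 3 throughout). All of these sums are on the deposited FPKM scale, and their ratios shift with the scaling as those of single genes do. The TMM-scaled log2 fold changes of the ubiquitous genes were 0.43 for Prkag1, -0.06 for Prkaa1 and -0.1 for Prkab1. The lower ubiquitous sum in knockout-labelled libraries thus rests on the scale.

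Ranked by gene FPKM, the order in the knockout-labelled libraries was Prkab2, Prkag1, Prkag3, Prkaa2, Prkab1, Prkaa1 and Prkag2, and no neighbours overlapped. In controls the order was Prkag1, Prkab1, Prkab2, Prkag2, Prkaa1, Prkaa2 and Prkag3, and only Prkab2 (8.98 ± 0.15 FPKM) and Prkag2 (8.81 ± 0.154 FPKM) overlapped. Parts of this order depended on how a gene's length was counted, since the deposited gene FPKM of several members rests on a length above that of their longest transcript. With the FPKM of a gene's transcripts summed instead, Prkag1 led in knockout-labelled libraries at 36.6 ± 1.89, ahead of Prkab2 at 33.0 ± 0.862 and Prkag3 at 28.7 ± 0.975 (SD, n = 3). Prkaa1 was then last in knockout-labelled libraries at 5.2 ± 0.267, below Prkag2 at 9.24 ± 0.476. In controls Prkag1 then stood at 36.7 ± 1.78, while Prkag2 moved up to 19.1 ± 0.261 and Prkab2 was at 9.21 ± 0.108. Prkag3 was last in controls on both counts.

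The muscle-type genes did not differ between the groups in equal measure. The FPKM ratio of Prkag3 to Prkaa2 was 1.21, 1.21 and 1.15 in knockout-labelled libraries, against 0.511, 0.427 and 0.405 in controls. The gain of Prkag3 over Prkaa2 was 1.40 on the log2 scale (SE 0.104), and over Prkab2 it was 1.70 (SE 0.114). Prkaa2 and Prkab2 kept closer together: their ratio was 0.553, 0.521 and 0.534 in knockout-labelled libraries and 0.442, 0.42 and 0.447 in controls, a difference of 0.30 (SE 0.0376). Among the other subunits, Prkab1 and Prkaa1 differed by -0.05 (SE 0.101) in their log2 fold changes, within the error. Prkag2 was lower relative to Prkag1, with ratios of 0.147, 0.165 and 0.17 in knockout-labelled libraries and 0.304, 0.33 and 0.342 in controls, a difference of -1.02 (SE 0.0816).

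Set against muscle markers, Prkaa2 was nearly level between the groups and Prkag3 was not. Summed FPKM of the 25 muscle markers was 43100 ± 368 in knockout-labelled libraries and 10000 ± 77.4 in controls, a log2 ratio of 2.10. Per 10000 FPKM of these markers, Prkaa2 had 4.02 ± 0.0985 FPKM in knockout-labelled libraries and 3.9 ± 0.151 in controls (SD, n = 3 each), a log2 ratio of 0.04. Prkab2 had 7.5 ± 0.182 in knockout-labelled libraries against 8.94 ± 0.0809 in controls, a log2 ratio of -0.25. Prkag3 had 4.77 ± 0.236 against 1.75 ± 0.252, a log2 ratio of 1.45. Such a ratio depends on the markers summed, whose own log2 fold changes ran from 1.04 (Tnni1) to 3.64 (Myh4). The part of tissue or fibre makeup in it was not tested. The 4 other members were all lower per unit of muscle marker, at log2 ratios of -2.10 for Prkag1, -2.58 for Prkaa1, -2.63 for Prkab1 and -3.12 for Prkag2. Since the marker sum itself had a log2 ratio of 2.10, any gene level in FPKM comes out at -2.10, as Prkag1 did.

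**Figure D4:**
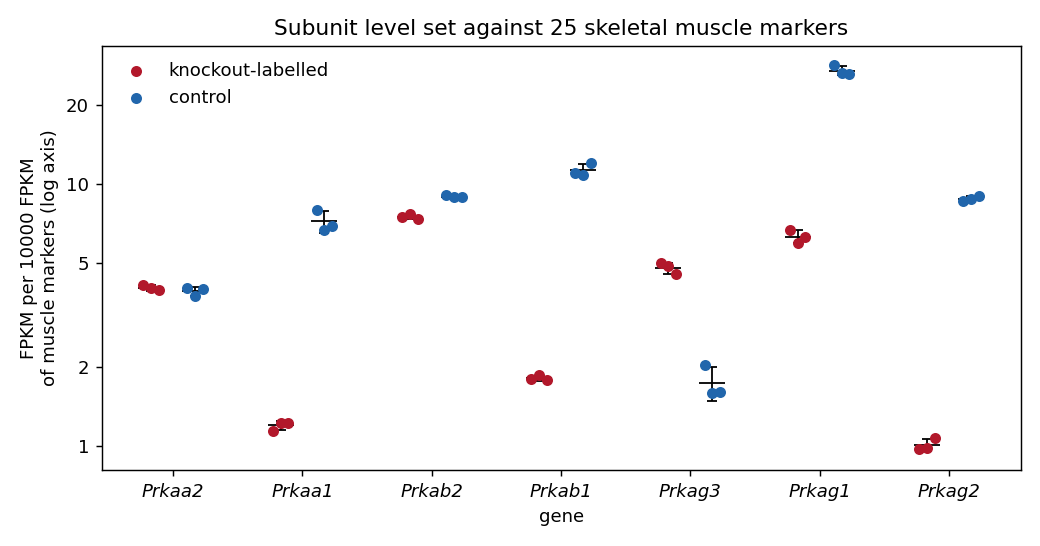
FPKM of each subunit per 10000 FPKM of 25 summed muscle markers, by library on a log axis, knockout-labelled left of control. Prkaa2 is nearly level (4.02 against 3.9), Prkag3 is higher in knockout-labelled libraries (4.77 against 1.75), and Prkaa1, Prkab1, Prkag1 and Prkag2 are lower. A gene level in FPKM would also be lower here, since the marker sum is higher in knockout-labelled libraries.

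The muscle markers themselves were uneven. Among the 4 myosin heavy chains on the list, the log2 fold change was 3.64 for Myh4, the myosin of the fastest fibres, at 2850 FPKM in knockout-labelled and 306 FPKM in control libraries. It was 1.23 for Myh7, the slow myosin, at 245 FPKM in knockout-labelled and 140 FPKM in control libraries. The other fast myosins lay between them, Myh2 at 2.16 and Myh1 at 1.98, both below the list's median of 2.38. Of the troponin T and I genes on the list, the fast forms Tnnt3 (2.75) and Tnni2 (2.61) stood above the slow forms Tnnt1 (1.22) and Tnni1 (1.04). Prkag3 exceeded all 25 markers in log2 fold change, Prkaa2 exceeded 14 of them and Prkab2 exceeded 10. The median over all genes tested was -0.02.

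By likeness of pattern, measured as the Euclidean distance between centred TMM-scaled log2 profiles over the 6 libraries among 12307 genes, the muscle-type subunits had different neighbours. Prkab2 lay closest to Ttn (distance 0.0578), the giant spring protein of the sarcomere, Cacna1s (0.0614), the voltage sensor of the muscle triad, and Neb (0.0619), which spans the thin filament. Prkaa2 lay closest to Phka1 (0.0778), the muscle regulatory subunit of phosphorylase kinase, Ank1 (0.0873), which encodes a membrane adaptor, and Scn4b (0.098), an auxiliary sodium channel subunit. Prkag3 had no neighbour as close: Cidec (0.17), a lipid droplet protein that is also on the adipocyte list, Mylk4 (0.226), a myosin light chain kinase, and Fosb (0.278), an AP-1 factor. With 2 groups of 3 libraries, such a distance mostly reflects the size of the difference between the groups.

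At transcript level, 37 transcripts of the 7 genes are listed in the deposited table, and the split between transcripts was alike in both groups for Prkab2 and Prkag1 and differed for Prkag2. Prkaa2 has a single transcript, and ENSMUST00000045743 held 99.3% of Prkab2 counts in knockout-labelled libraries and 97.9% in controls. ENSMUST00000168846 held 97.7% of Prkag1 counts in knockout-labelled libraries and 97.5% in controls. Prkag2 was lower in the 2 transcripts that held at least 5% of its counts, with the wider gap in the shorter of them. The 16-exon ENSMUST00000030784 had 6.82, 7.45 and 7.73 FPKM in knockout-labelled libraries, against 13.2, 12.8 and 12.6 FPKM in controls. The 14-exon ENSMUST00000076306, which starts downstream within the gene at 25200751, had 0.661, 0.538 and 0.896 FPKM in knockout-labelled libraries, against 3.35, 3.46 and 4.66 FPKM in controls. The 14-exon form held 6.98% ± 1.45 of Prkag2 counts in knockout-labelled libraries and 19.0% ± 3.24 in controls, without overlap. A still shorter protein-coding form, the 12-exon ENSMUST00000114975, was low and overlapped between the groups. It had 0.493, 0.132 and 0.363 FPKM in knockout-labelled libraries, against 0.258, 0.686 and 0.348 FPKM in controls.

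For Prkag3, a pair of transcripts with 14 exons and the same span held nearly all counts, the protein-coding ENSMUST00000188073 with 49.6% ± 3.04 in knockout-labelled libraries and 59.9% ± 20.2 in controls. The other, ENSMUST00000160732, annotated as a target of nonsense-mediated decay, held 45.0% ± 1.94 in knockout-labelled libraries and 31.5% ± 15.4 in controls, and with so similar a structure the division between them is uncertain. For Prkab1, ENSMUST00000031486 held 65.3% ± 15.7 in knockout-labelled libraries and 49.3% ± 23.1 in controls, a difference well within the spread between replicates. Antisense or overlapping genes were annotated within the spans of Prkaa1, Prkab1, Prkag1 and Prkag2, all below 1 FPKM in the mean of either group, and the strand setting of the counting is not given.

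The genes around AMPK were described from lists arranged by role. The lists were chosen with earlier results of these data known, so counts over them are a description. Of 72 tested genes on 5 lists, 40 were higher and 19 lower in the knockout-labelled libraries at an adjusted p of 0.05 (edgeR quasi-likelihood test, Benjamini-Hochberg over all genes), with a median log2 fold change of 0.24. Over all genes tested, 28.7% were higher and 28.8% lower, with a median of -0.02. With library totals the listed genes gave 27 higher and 37 lower, beside 16.6% higher and 50.7% lower over all genes, so the balance of directions rests on the scaling. Adjusted p-values below come from the same edgeR fit, and values after a gene are FPKM means over 3 libraries.

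Of the upstream regulators 6 were higher, 2 lower and 2 did not pass, with a median log2 fold change of 0.29. With library totals 3 were higher and 5 lower. Stradb, a pseudokinase partner of LKB1, had 11.3 FPKM in knockout-labelled and 4.55 FPKM in control libraries, a log2 fold change of 1.74 (SE 0.0296, adjusted p = 1.7e-12). Stk11, which encodes LKB1 itself, had 29.4 ± 0.576 FPKM in knockout-labelled and 24 ± 1.0 FPKM in control libraries, at 0.72 (SE 0.0391, adjusted p = 3.1e-09). Its scaffold Cab39 had 25.5 FPKM in knockout-labelled and 20.7 FPKM in control libraries, at 0.73 (adjusted p = 9.7e-11). Both turned to just below 0 with TPM, at -0.06 for Stk11 and -0.05 for Cab39. The other pseudokinase, Strada, was at 0.27 (adjusted p = 0.019), but at -0.15 with library totals and -0.46 with TPM, and it lost its call without knockout-labelled replicate 1, control replicate 1 or control replicate 3 (adjusted p = 0.10, 0.061 and 0.065). Camkk2, the calcium-dependent kinase that phosphorylates alpha, fell to 1.84 FPKM in knockout-labelled libraries against 3.55 FPKM in controls (log2 fold change -0.52, adjusted p = 1.2e-05). Ppm1e, a phosphatase that acts on AMPK, fell to 1.26 FPKM in knockout-labelled libraries against 4.67 FPKM in controls (-1.46, adjusted p = 3.5e-09).

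Of 11 tested kinases related to AMPK and also served by LKB1, 2 were higher, 5 lower and 4 did not pass, with a median of -0.07. The number past the threshold, 7 of 11, is near the 57.5% of all genes, so it is no result about these kinases as a list. With library totals 0 were higher and 10 lower. Brsk1, a kinase of neuronal polarity, showed the largest fall, to 0.461 FPKM in knockout-labelled libraries against 1.85 FPKM in controls (log2 fold change -1.56, SE 0.248, adjusted p = 2.4e-05). Sik1, a salt-inducible kinase, fell to 3.23 FPKM in knockout-labelled libraries against 5.92 FPKM in controls (-0.45, adjusted p = 9.6e-05). Nuak2 was at -0.64 (adjusted p = 0.012), and at -0.49 (adjusted p = 0.067) without control replicate 1. The 2 called as higher, Mark3 (0.25, adjusted p = 2.8e-04) and Nuak1 (0.18, adjusted p = 0.0012), turned to -0.17 and -0.24 with library totals.

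Of 22 genes whose products AMPK acts on, 15 were higher, 4 lower and 3 did not pass, with a median of 0.42. With library totals 9 were higher and 9 lower. Acacb, the muscle-type acetyl-CoA carboxylase whose product restrains fat oxidation, had 16.1 ± 0.715 FPKM in knockout-labelled and 5.75 ± 0.41 FPKM in control libraries, at 1.92 (SE 0.0647, adjusted p = 5.7e-12). Gys1, the muscle glycogen synthase, had 66.3 FPKM in knockout-labelled and 26.8 FPKM in control libraries (1.73, adjusted p = 2.3e-13). Ppargc1a, the coactivator of mitochondrial genes, had 1.85 FPKM in knockout-labelled and 0.556 FPKM in control libraries (2.15, adjusted p = 1.7e-08). Among those that fell, Pikfyve, a lipid kinase, was at -0.40 (adjusted p = 1.9e-04). Crtc2, a CREB coactivator, was at -0.16 (adjusted p = 0.047) and missed the threshold when any of 4 libraries was left out, with an adjusted p of 0.16, 0.061, 0.14 and 0.16 without knockout-labelled replicate 1, knockout-labelled replicate 2, control replicate 2 and control replicate 3.

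Of the 15 genes of adenine nucleotide and phosphagen handling, which bear on the AMP that gamma subunits sense, 10 were higher, 3 lower and 2 did not pass, with a median of 1.43. With library totals 9 were higher and 5 lower. Ampd1, the muscle AMP deaminase, had 132 ± 0.654 FPKM in knockout-labelled and 16.1 ± 0.901 FPKM in control libraries, at 3.46 (SE 0.0459, adjusted p = 2.2e-15). Its widely expressed relative Ampd2 fell to 5.13 FPKM in knockout-labelled libraries against 11.7 FPKM in controls (-0.76, adjusted p = 7.1e-08). Likewise Ckm, the muscle creatine kinase, had 3660 FPKM in knockout-labelled and 649 FPKM in control libraries (2.92, adjusted p = 6.7e-19), while the brain-type Ckb fell to 43.5 ± 0.794 FPKM in knockout-labelled libraries against 288 ± 2.72 FPKM in controls (-2.30, adjusted p = 1.4e-15). Nt5c1a, a cytosolic nucleotidase that acts on AMP, had 1.87 FPKM in knockout-labelled and 0.335 FPKM in control libraries (2.88, adjusted p = 6.1e-06).

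Of 14 genes of adipokine and nutrient input, 7 were higher, 5 lower and 2 did not pass, with a median of 0.13. With library totals 6 were higher and 8 lower. Slc2a4, the insulin-responsive glucose transporter of muscle and fat, had 90.6 ± 2.44 FPKM in knockout-labelled and 24.2 ± 0.0801 FPKM in control libraries (2.33, adjusted p = 4.5e-15). Adipoq, which encodes adiponectin and is also on the adipocyte list, had 34.6 FPKM in knockout-labelled and 14 FPKM in control libraries (1.73, adjusted p = 8.6e-10), and its binding partner Cdh13 was at 1.5 (adjusted p = 1.2e-09). Lep, which encodes leptin and is on the adipocyte list too, was outside the rule for named genes with a mean below 1 FPKM and is named after its values were seen: it had 1.3 ± 0.08 FPKM in knockout-labelled and 0.102 ± 0.00611 FPKM in control libraries (4.08, adjusted p = 2.8e-09). The leptin receptor Lepr fell to 5.92 FPKM in knockout-labelled libraries against 11.7 FPKM in controls (-0.56, adjusted p = 5.7e-08). The stress-induced sestrins were also lower, Sesn2 at -0.60 (adjusted p = 0.0019) and Sesn1 at -0.44 (adjusted p = 2.0e-06).

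**Figure D5:**
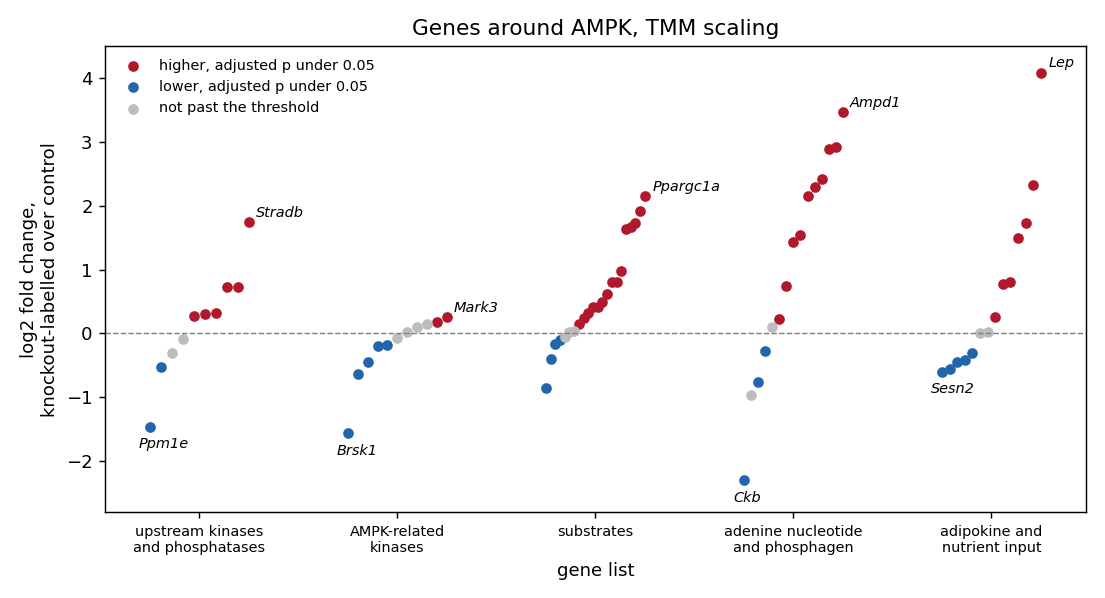
TMM-scaled log2 fold change, knockout-labelled over control, of the tested genes on the 5 lists around AMPK, one point per gene, with the called genes set apart from the rest. The nucleotide and phosphagen genes spread from -2.30 (Ckb) to 3.46 (Ampd1), and of the kinases related to AMPK 5 lie below 0 and 2 above 0 past the threshold, the 2 turning below 0 with library totals.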

How the data were processed

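Femur RNA of 6 mice was sequenced as poly(A)-selected, stranded libraries read from both ends, per the labels' protocols. The deposited gene and transcript tables hold FPKM values and estimated counts, both computed by the authors. Per the submitters' processing notes, the tools were fastp, HISAT2, StringTie and RSEM, and the build was GRCm39. Their versions, roles, strand setting and annotation release are not given here. Transcript counts equalled FPKM times length and a constant per library within 1 count for 99.7% of values, so they come from coverage. PCR copies are not independent molecules, so depth gives counting error only.

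Groups follow the treatment labels, replicate numbers the titles. Counts were rounded to whole numbers, filtered with filterByExpr (20388 of 34361 genes, with 99.96% of counts), TMM-scaled and tested in edgeR 4.0.16 (R 4.3.3) with the quasi-likelihood F test, two-sided, Benjamini-Hochberg adjusted at 0.05 over all genes tested. The SE of a fold change comes from log2 CPM (prior count 2) between replicates. A difference between subunits is that of their TMM-scaled log2 fold changes, while its SE comes from their log2 FPKM ratio between replicates. FPKM are printed as deposited. Alternatives used library totals, other scaling factors, other filters, DESeq2 1.42.0 and limma 3.58.1 on FPKM or TPM. The steps were tested on simulated counts.

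The 7 members and the gene lists were chosen with earlier results of these data known. The named pathway genes are, per list, up to 3 with the largest and 3 with the most negative log2 fold change past the threshold at a mean FPKM of at least 1, and always Stk11, Strada, Cab39 and Camkk2. Some genes the rule took are not reported here. For likeness of pattern, the 3 nearest genes at a mean FPKM of at least 1 were named, leaving out members and predicted genes. Promoters were matched by symbol to RefSeq (GRCm38.p6) for all 7 genes, and no coordinate was carried between builds.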

Additional observations from a re-analysis of the deposited data

How the results depend on the processing

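Prkaa2, Prkab2 and Prkag3 were higher and Prkag2 lower under every alternative run. Prkag1 turned to -0.34 with TPM, and Prkaa1, at -0.06, was at 0.03 without control replicate 1. The muscle-type minus ubiquitous difference of log2 fold changes was 2.63 for alpha, and 2.31 with limma on log2(FPKM + 1), with or without its filter, and 2.49 with TPM. For beta it was 2.38, and 2.22 and 2.31 in the same settings, and for gamma 3.54, and 2.97 and 3.33. Leaving out each library in turn gave 2.56 to 2.67 for alpha, 2.33 to 2.41 for beta and 3.5 to 3.63 for gamma. Taken from counts, without length, the muscle-type shares in knockout-labelled and control libraries were 85.1% and 48.2% for Prkaa2, 87.2% and 56.8% for Prkab2, and 46.5% and 5.28% for Prkag3. With summed transcript FPKM, a setting chosen after seeing the data, Prkab2 held 71.3% and 30.7%.

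Around AMPK, Stk11 (-0.06) and Cab39 (-0.05) turned with TPM. Mark3 turned to -0.17 with library totals, -0.15 with log2(FPKM + 1) with or without a filter, -0.17 with log2(FPKM + 0.1) and -0.49 with TPM. Nuak1 turned to -0.24, -0.22, -0.24 and -0.57 in those settings, and Strada to -0.15, -0.12, -0.16 and -0.46. A lower scale by construction moves near-level genes below 0. Over all genes, library totals called 3379 higher and 10339 lower, and TPM 1973 and 12345, against 5860 and 5872 with TMM. Leaving out each library called 10916 to 11278 genes, and 55 to 57 of the pathway genes, against 11732 and 59.

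With the replicate number as a replicate block, 5673 genes were higher and 5671 lower (11344 called). Same-numbered libraries did not deviate together (correlations of -0.06, -0.02 and -0.01). No sign of pairing by number was thus seen, though such correlations cannot exclude that the animals were paired. Depth was lowest for Prkag3 in controls, at 453 to 560 counts. The transcript splits of Prkab1, and of Prkag3 in controls, varied widely between replicates, and the cause was not tested.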
